A study of Mus musculus with 12 samples.

Results

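Atoh1, Neurog3, Neurod1, Insm1, Nkx2-2 and Isl1, 6 genes for transcription factors that direct intestinal cells into the secretory and enteroendocrine lineages, were followed through lists of H3K27me3 islands. Each gene was given a fixed window of 35 to 45 kb on mouse assembly mm9, and its members were the islands that overlap the window. Of the 81097 islands in all 8 lists, 68 did so. ChIP-seq, the sequencing of chromatin fragments captured with an antibody to H3K27me3, had been done on 4 populations of mouse small-intestinal epithelium, with 2 ChIP libraries each that the series design calls biological duplicates. They were the EpCAM-positive epithelium of embryos at E12.5 and E14.5 (days of gestation), stem cells of adult mice sorted by Lgr5 (ISC), and adult enterocytes (AE). All mice were of a mixed C57BL/6 and CD1 background, and the labels give neither the sex of the embryos nor the number of animals behind a library. Both adult populations came from Lgr5EGFP-Cre-ERT males at postnatal day 60, in which the stem cells were sorted for high EGFP driven from Lgr5. The labels describe the enterocyte gate as EpCAM positive and CD31, CD45 and DAPI negative, and name no marker in it that parts enterocytes from secretory cells of the same epithelium.

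H3K27me3 is placed by Polycomb complexes and marks genes kept silent, among them many developmental regulators that only a few cells of a tissue ever use. In the intestine, Notch signalling holds Atoh1 down in cells bound for absorption. Cells that escape it enter the secretory lineage, which includes goblet, Paneth and enteroendocrine cells. Neurog3 then starts the enteroendocrine programme, in which Neurod1, Insm1, Nkx2-2 and Isl1 act in turn or together. Enteroendocrine cells are a rare type of the intestinal epithelium, and expression of these genes was not analysed here.

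All 6 windows held an island in each of the 8 libraries. Each also contained length that all 8 lists covered: 6.4 kb at Atoh1, 9.4 kb at Neurog3, 5.8 kb at Neurod1, 12.4 kb at Insm1, 18.6 kb at Nkx2-2 and 20.2 kb at Isl1. This length was broken into 2 stretches at Insm1 (longest 9.4 kb) and 3 at Isl1 (longest 7.4 kb), and was a single stretch at the other loci. As background, the autosomes were divided into tiles of 40 kb, and 2.71% of all 62203 tiles (7.14% of the 23645 tiles with any island) held an island in each library. The windows had been placed on genes and the tiles had not, so the background describes the lists and is no matched control. At no locus was any length covered by all embryonic and no adult library, or by all adult and no embryonic library. In such bulk libraries a mark in fewer cells and less of it per cell cannot be told apart. What varied was how far the islands reached to either side, as the map of islands by library shows.

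**Figure D1:**
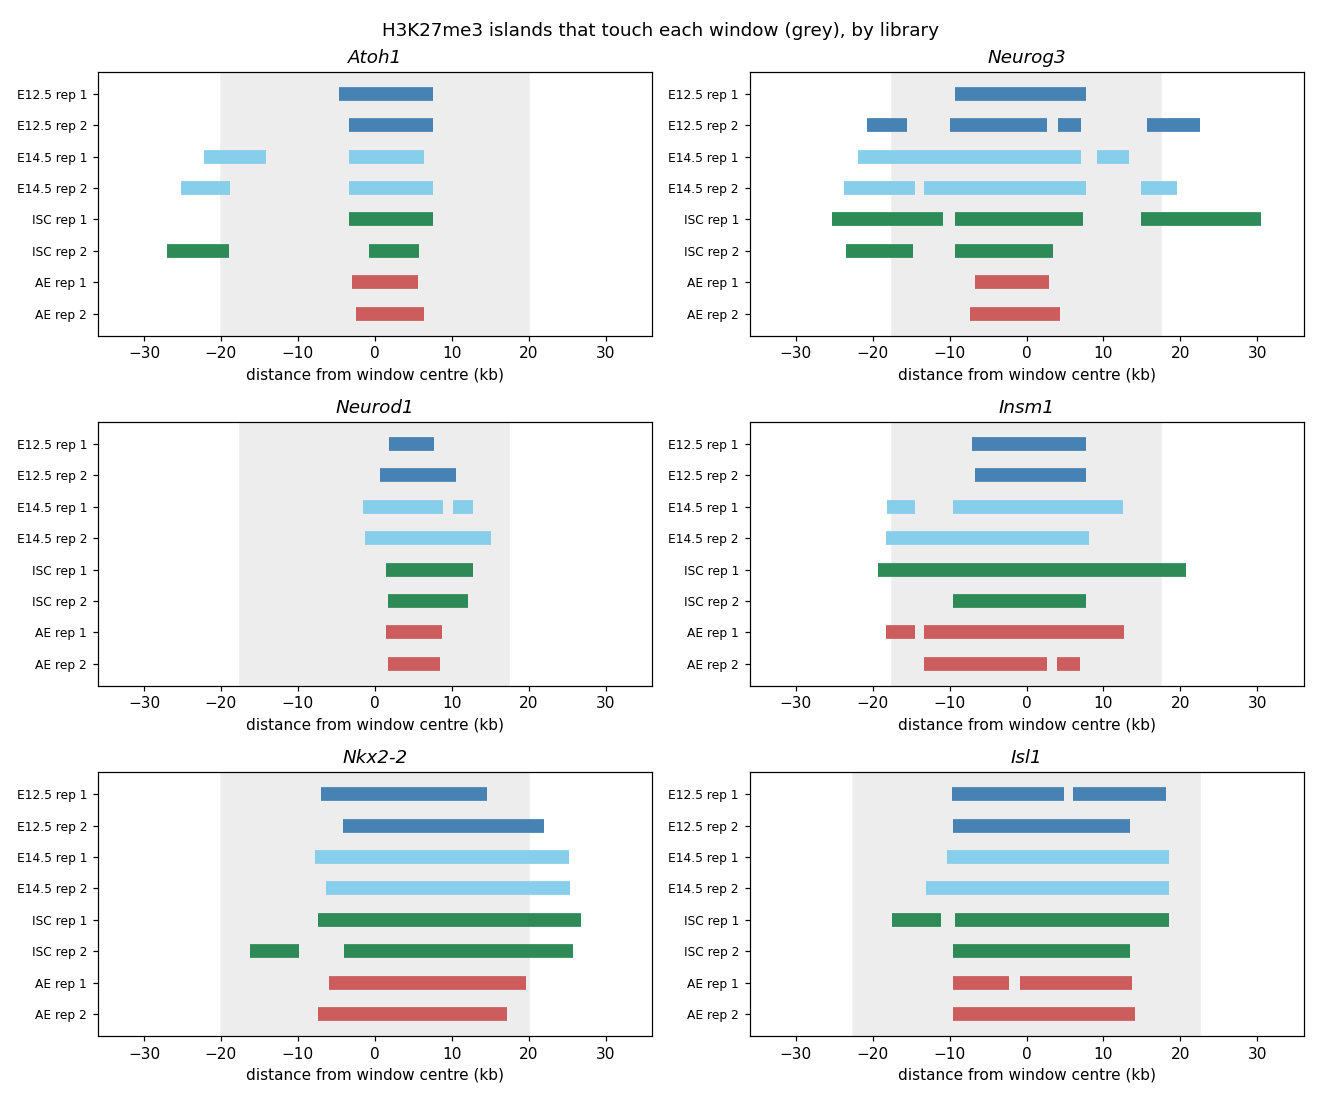
Islands that touch each of the 6 windows (grey), 1 row per library, against the distance from the window centre in kb. Every row holds an island near the middle of the window, and the E14.5 islands at Neurog3 and Neurod1 reach farther out than those of AE.

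The windows were marked more densely than their wider surroundings. In each of the 8 libraries every window was covered to a larger share than the 250 kb on each side, pooled. Flanks as wide as the window did not all lie below it. At Neurog3 in ISC replicate 1 they had 81.1% and 93.1%, against 73.7% in the window. At Atoh1 the left flank had 50.5% and 33.5% in ISC replicates 1 and 2, against 27.5% and 19.0%. At Neurod1 in AE replicate 1 the left flank had 35.4%, against 20.6%. All other flanks lay below their window. The surroundings of Isl1 were nearly bare, with 0 to 1.48% of their length in islands, and its flanks of equal width held no island in any library. At Atoh1 the surroundings were covered to at most 4.56% and at Neurod1 to at most 4.20%. The share around Insm1 ran from 2.20 to 14.48% and around Nkx2-2 from 4.64 to 20.8%. Insm1 and Nkx2-2 are neighbours on chromosome 2, 920 kb apart from window to window. Neurog3 lay in the most widely marked surroundings, with a median of 12.52% and a maximum of 51.4% in ISC replicate 1.

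**Figure D2:**
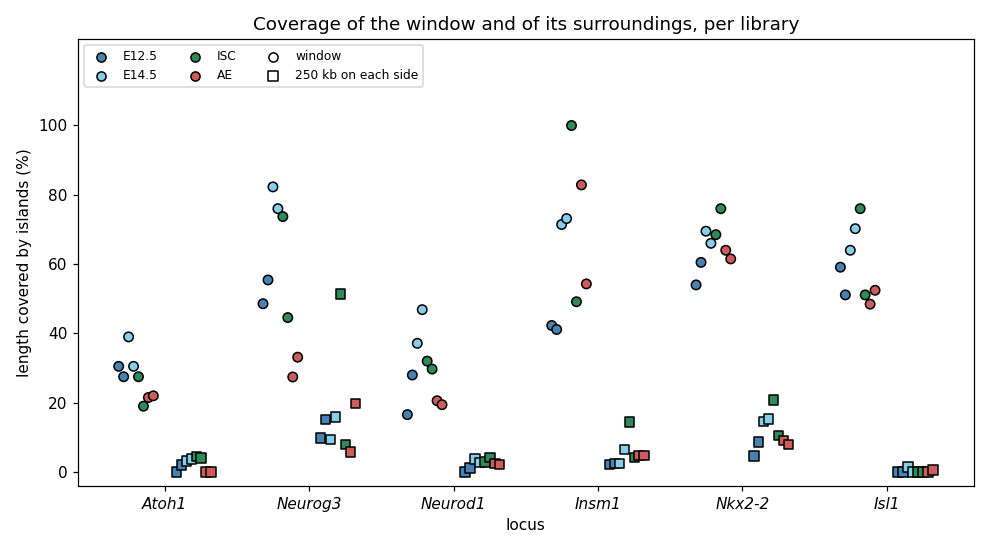
Percent of length covered by islands in each window (circles) and in the 250 kb on each side of it (squares), 1 point per library, coloured by population. The circles lie above the squares of the same library at all 6 loci, and the highest square is ISC replicate 1 at Neurog3, at 51.4%.

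RefSeq promoter sequences of assembly GRCm38.p6 were matched by symbol for 5 of the 6 genes, all but Insm1. The mm9 lists cannot be laid on that assembly, so whether an island covers these bases is not given here. CpG dinucleotides, which are dense in the promoters where Polycomb complexes usually settle, were counted in the 250 bases before each start. Isl1 held 33, Neurod1 22, Neurog3 18, Atoh1 14 and Nkx2-2 8, against a median of 6 over 32851 promoter entries. Isl1 thus had as many CpGs as the top 4.03% of entries, and Nkx2-2 as many as the top 43.0%. The richest and the poorest are printed below with Neurog3, whose islands varied most between populations. Each runs from 5′ to 3′ towards the start site, with its CpGs in capitals, the first on the plus strand and the other two on the minus strand.
Neurog3: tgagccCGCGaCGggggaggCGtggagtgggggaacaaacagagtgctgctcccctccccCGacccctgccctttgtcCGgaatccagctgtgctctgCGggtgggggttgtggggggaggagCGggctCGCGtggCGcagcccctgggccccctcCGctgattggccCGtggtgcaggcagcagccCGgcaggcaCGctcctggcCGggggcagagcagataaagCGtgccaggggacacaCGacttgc
Isl1: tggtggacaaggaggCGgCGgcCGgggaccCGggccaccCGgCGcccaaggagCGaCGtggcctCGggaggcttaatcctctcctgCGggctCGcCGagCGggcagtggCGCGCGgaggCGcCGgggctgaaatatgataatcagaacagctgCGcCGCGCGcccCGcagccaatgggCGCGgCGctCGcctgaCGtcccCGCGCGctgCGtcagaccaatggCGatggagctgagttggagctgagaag
Nkx2-2: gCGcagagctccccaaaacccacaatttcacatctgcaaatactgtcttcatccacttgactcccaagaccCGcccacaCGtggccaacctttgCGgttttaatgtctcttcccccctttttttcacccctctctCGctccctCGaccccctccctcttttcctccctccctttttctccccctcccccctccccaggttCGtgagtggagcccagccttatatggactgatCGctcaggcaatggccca
The E-box CANNTG, the motif that proteins of the Atoh1, Neurog3 and Neurod1 family bind and which reads alike on both strands, was found in 4 of these 5 sequences. It occurred 3 times before Nkx2-2, once each before Neurog3, Neurod1 and Isl1, and not before Atoh1, while 66.2% of all entries held at least 1. A match of these letters is a description of the sequence and not a binding site.

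Atoh1, the switch into the secretory lineage (window 6:64660001-64700000), had a central island of 6.6 to 12.2 kb, and no population stood apart from all others. In the E12.5 libraries (replicates 1 and 2, here and below) islands covered 30.5% and 27.5% of the window, and in those of E14.5 39.0% and 30.5%. The ISC libraries had 27.5% and 19.0%, the AE libraries 21.5% and 22.0%. Both AE libraries lay below all 4 embryonic ones, and ISC replicate 1 equalled the lowest of these. Neighbouring populations in the order E14.5, E12.5, ISC and AE touched or overlapped. Embryonic libraries averaged 31.9% ± 4.96 (SD, n = 4) and adult libraries 22.5% ± 3.58 (SD, n = 4), a difference of -9.38 percentage points (exact two-sided permutation p = 0.0571). Without ISC replicate 1, whose list covered 241 Mb where the others covered 60.8 to 109 Mb, the difference was -11.0 points (exact permutation p = 0.0286). With any other library left out the exact permutation p was 0.0571 to 0.0857. With all libraries kept and every list trimmed to the same covered length, the difference was -5.0 points (exact permutation p = 0.114). The central island began between 64675401 and 64679201 and ended between 64685600 and 64687600, so its borders varied by 3.8 and 2.0 kb. Both E14.5 libraries and ISC replicate 2 also called a separate island at the left edge of the window, with folds over control of only 1.34, 1.41 and 1.37. Here and below the fold is the value the authors deposited for each island, ChIP over control reads after scaling, and it serves to describe an island within its own list. With islands below a fold of 1.5 left out, the E14.5 libraries had 24.5% and 27.5%, no longer above those of E12.5 with 30.5% and 27.5%. The ISC libraries then had 27.5% and 16.5%.

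Neurog3, which commits secretory progenitors to the enteroendocrine fate (window 10:61580001-61615000), varied most between population means. Its window was covered to 48.6% and 55.4% in the E12.5 libraries and to 82.3% and 76.0% in those of E14.5. The stem cell libraries had 73.7% and 44.6%, and the AE libraries 27.4% and 33.1%. Both E14.5 libraries lay above the other 6, as in 4.72% of tiles with an island (8.12% of the 1688 tiles with one in all 8 libraries). Both AE libraries lay below the other 6, as in 0.888% and 5.15% of these tiles. ISC overlapped E12.5. The means were 52.0% ± 4.85, 79.1% ± 4.44, 59.1% ± 20.6 and 30.3% ± 4.04 (SD, n = 2 each) in the order E12.5, E14.5, ISC, AE. From E14.5 to AE the share fell by 48.9 points, and 11.8 kb covered in both E14.5 libraries were in neither AE library. The longest such stretch ran from 61584201 to 61590200. No length went the other way. The central island measured 29.0 and 21.0 kb at E14.5 but 9.6 and 11.6 kb in AE, with 16.6 and 12.8 kb in stem cells and 17.0 and 12.6 kb in the younger embryo. All 8 of them shared 61590801 to 61600200.

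At Neurog3 the embryonic and adult libraries averaged 65.6% ± 16.1 and 44.7% ± 20.6 (SD, n = 4 each; exact permutation p = 0.143). These groups overlapped through ISC replicate 1 alone, whose 73.7% lay above the lowest embryonic share of 48.6%. All other adult libraries lay below that share. With every list trimmed to the same covered length, ISC replicate 1 had 47.4% and the groups did not overlap. The size of the difference depended on the setting. It was -9.38 points with the window widened by 50% on each side and -19.7 points in its central 50% (exact permutation p above 0.05 for both). With every list trimmed to the same covered length the difference was -23.4 points, and with islands below a fold of 1.5 left out it was -33.4 points (exact permutation p = 0.0286 each). The fold limit removes the central island of ISC replicate 2. That island held 288 ChIP and 307 control reads and had a fold of 1.30 (95% exact interval 1.104 to 1.53, counting error only). Only 19.3% of the islands in that list had a lower fold. In ISC replicate 1 the same stretch lay in an island with a fold of 2.27, above 94.1% of its list.

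Neurod1, a factor downstream of Neurog3 in endocrine differentiation (window 2:79275001-79310000), carried the shortest length common to all lists. At E12.5 it was covered to 16.6% and 28.0%, a share that stood at 37.1% and 46.9% at E14.5. Stem cells had 32.0% and 29.7%, enterocytes 20.6% and 19.4%. Again both E14.5 libraries lay above the other 6. ISC came next, above both E12.5 and both AE libraries, and the last 2 populations overlapped. Both E14.5 libraries and no ISC or AE library covered 2.8 kb from 79291201 to 79294000. On the other side, 3.4 kb from 79301201 to 79304600 were in both ISC and neither AE library. The ISC islands and the AE islands began within 200 bp of each other, at 79294001 or 79294201, and differed at their right ends.

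Insm1, a zinc-finger factor of endocrine progenitors (window 2:146030001-146065000), was marked over the shortest length at E12.5. There islands covered 42.3% and 41.1% of it, against 71.4% and 73.1% at E14.5. ISC had 100% and 49.1%, and AE 82.9% and 54.3%. Both E12.5 libraries lay below the other 6, as in 2.9% of tiles with an island and 14.8% of those with one in all 8 libraries. The ranges of the later populations overlapped. All embryonic libraries averaged 57.0% ± 17.7 and all adult libraries 71.6% ± 24.1 (SD, n = 4 each; exact permutation p = 0.371). Length covered in both AE and neither E12.5 library came to 6.2 kb, from 146034201 to 146040400, and was found at no other of the 6 loci. ISC replicate 1 covered the window with a single island of 40.0 kb, against 17.2 kb in ISC replicate 2.

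Nkx2-2, a homeodomain factor that specifies enteroendocrine subtypes (window 2:146985001-147025000), was covered to 54.0% or more in every library, up to 76.0%. The E12.5 libraries had 54.0% and 60.5%, those of E14.5 69.5% and 66.0%. Stem cells had 68.5% and 76.0%, and enterocytes 64.0% and 61.5%. Both E12.5 libraries lay below the other 6, AE came next, and E14.5 and ISC overlapped above it. The gap between AE and E14.5 was small, with 0.4 kb covered in both E14.5 and neither AE library. The central island ran to 34.2 kb in ISC replicate 1, and in each list it was longer than at least 94.9% of the islands. Embryonic and adult libraries averaged 62.5% ± 6.77 and 67.5% ± 6.36 (SD, n = 4 each; exact permutation p = 0.371).

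Isl1, a LIM-homeodomain factor of hormone-producing cells (window 13:117070001-117115000), had the longest common length and some of the highest folds. In the younger embryos its share was 59.1% and 51.1%, then 64.0% and 70.2% at E14.5. In adult cells it was 76.0% and 51.1% for ISC and 48.4% and 52.4% for AE. E14.5 lay above both E12.5 and AE, which overlapped each other, and the ISC libraries overlapped or touched all 3. Both E14.5 libraries and no AE library covered 5.2 kb, of which 4.4 kb ran from 117106601 to 117111000 at the right end. In 5 libraries an island began at 117083001 or 117083201. The first E12.5 library had its start at 117082801 and the E14.5 libraries at 117082201 and 117079401, while ISC replicate 1 held a further island from 117075001. The rightmost ends lay between 117106000 and 117111000. In the 6 libraries of E12.5, E14.5 and ISC the central island had a higher fold than at least 96.3% of its list, up to 99.8% in both replicate 1 libraries of the embryo. In the AE libraries it exceeded 86.1% and 82.6%.

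**Figure D3:**
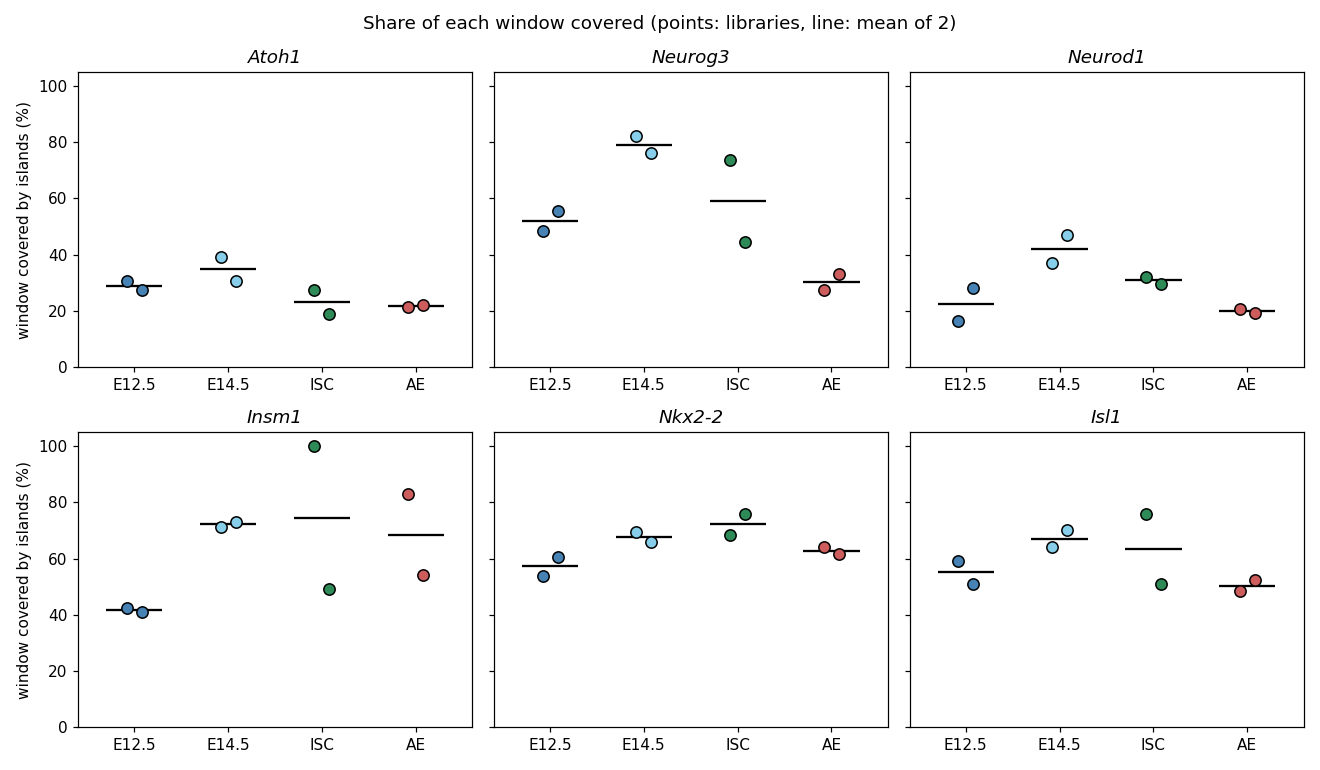
Share of each window covered by islands, in percent, for the 2 libraries of each population (points) and their mean (line). Neurog3 and Neurod1 peak at E14.5, Insm1 and Nkx2-2 are lowest at E12.5, and the ISC points of Neurog3, Insm1 and Isl1 lie far apart.

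The 3 developmental steps were then read over the 6 loci by asking whether the shares of 2 populations overlapped. With 2 libraries against 2 no p-value below 0.333 can be had, so these are counts without a test. From E12.5 to E14.5, 5 of 6 loci were higher in both later libraries, by 10.5 to 30.6 points in the mean. Atoh1 was the exception, with a value of 30.5% at both ages, and no locus was lower. Among tiles with an island in either population 22.1% met the same rule, and among the 1688 tiles with an island in all 8 libraries 49.4% did. The median gain over the 6 loci was 15.9 points, beside 11.0 over those 1688 tiles. In the central 50% of each window, the count was 3.

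From E14.5 to ISC, Atoh1, Neurog3 and Neurod1 were lower in both later libraries, by 11.5, 20.0 and 11.1 points, while Insm1, Nkx2-2 and Isl1 overlapped. Of tiles with an island in either population 10.0% were lower, and of the 1688 tiles 11.7%. This count turned on the 2 unlike ISC libraries. Without ISC replicate 1, 5 loci were lower and 1 higher, and without ISC replicate 2, 3 were lower and 2 higher. With all libraries kept and islands below a fold of 1.5 left out, Neurog3 and Neurod1 were still lower and Atoh1 overlapped. From ISC to AE, Neurog3, Neurod1 and Nkx2-2 were lower, by 28.9, 10.9 and 9.50 points, against 11.9% of tiles with an island in either population and 20.2% of the 1688 tiles. All 6 loci were lower without ISC replicate 2, while 3 were lower and 2 higher without ISC replicate 1. With all libraries kept and islands below a fold of 1.5 left out, only Neurod1 was still lower in both AE libraries.

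E14.5 and AE were also set against each other, a comparison chosen after the values were seen and sharing its libraries with the steps above. Atoh1, Neurog3, Neurod1, Nkx2-2 and Isl1 were lower in both AE libraries, by 5.00 to 48.9 points, and Insm1 overlapped. Of tiles with an island in either population 21.2% were lower, and of the 1688 tiles 33.4%. The median difference was -14.8 points over the 6 loci and -3.00 over those tiles. The count of 5 was the same at equal covered length, among islands with a fold of 1.5 or more, and among islands with a false discovery rate (FDR) of 1e-10 or less. It was 4 in the central 50% of each window, and 6 with either AE library left out, where Insm1 was lower without the first and higher without the second. The ChIP library of replicate 1 was 1.63 times as large as that of replicate 2 at E14.5 and 1.68 times in AE, by the control they share. Relative depth between the populations is unknown, and its part in the difference was not tested.

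Embryonic and adult libraries as a whole did not part at any of the 6 loci. Shares overlapped or touched at all of them, where 3.74% of tiles with any island were higher in all adult libraries and 1.31% lower. The exact permutation p ran from 0.0571 at Atoh1 to 0.629 at Isl1, and 5.05% of those tiles had a p below 0.05. Adjusted over these tiles and the 6 windows by Benjamini-Hochberg, the exact permutation p was 0.884 at Atoh1 and Neurog3 and 1.00 at the other 4. The smallest adjusted exact permutation p of any tile was 0.566. It follows from the share of tiles with a p below 0.05 and from the design, since 4 against 4 libraries give no raw p below 0.0286.

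The central islands, those over most of the length common to all lists, ranked high in fold in their own lists. At Atoh1, Neurod1, Insm1, Nkx2-2 and Isl1 their fold was above the list median in all 8 libraries, and at Neurog3 in 7. They were ranked against all autosomal islands of a list, and not against other islands common to all 8 lists. A high rank is therefore not shown to be particular to these genes. Insm1 and Isl1 kept the highest ranks, with folds above at least 88.1% and 82.6% of each list. Control reads over these islands, 16.3 to 26.4 per kb, were close to the 17.7 to 23.2 per kb of all autosomal islands. ChIP reads divided by control reads ran from 1.42 to 3.91 at Isl1 and from 0.938 to 2.43 at Neurog3.

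**Figure D4:**
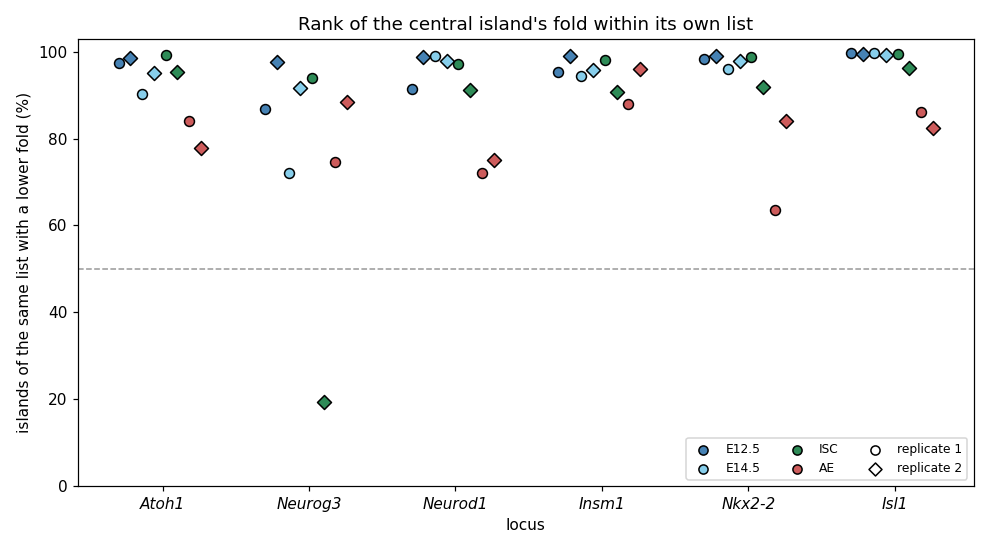
Percent of islands in the same list with a lower fold than the central island of each locus, 1 point per library, with the list median as a dashed line. All points but ISC replicate 2 at Neurog3, at 19.3%, lie above the line, and AE points are often the lowest of a locus.

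Replicates of a population share a control, and their folds are set side by side within it. In both embryonic populations the fold was higher in replicate 2 at all 6 loci, and among stem cells in replicate 1 at all 6. The same was not counted over all islands, so a difference between whole libraries cannot be told apart from one at these loci. Exact 95% intervals for counting error were apart at 6 loci for E12.5 and at 5 each for E14.5 and ISC, and at none for AE. At Isl1 the E12.5 folds were 2.44 and 4.57 and the E14.5 folds 4.20 and 5.31. The ISC libraries gave 3.55 and 2.09, and the AE libraries 1.88 and 1.86. The intervals leave out the spread between biological samples, and the islands set side by side were called separately and differ in length, as at Insm1 in ISC, so they are no test of a difference in enrichment. Whole E12.5 lists had median folds of 1.38 and 1.66, whole E14.5 lists 1.56 and 1.67. The medians of the stem cell lists were 1.46 and 1.44, those of the enterocyte lists 1.44 and 1.52.

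Across the 8 libraries the shares of Neurog3 ran most like those of Isl1 (Pearson r = 0.830), Neurod1 (0.809) and Atoh1 (0.798). Nkx2-2 and Atoh1 were least alike (r = -0.156). These values describe 8 libraries that share the extent of their lists, and carry no test.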

How the data were processed

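Per the submitters' processing notes, reads were handled with bcl2fastq 1.8.4, Bowtie 1.1.2, SAMtools 1.2 and SICER 1.1 on mm9. SICER merges enriched 200 bp windows into islands. The authors deposited 1 list per ChIP library, with whole-number read counts of ChIP and control in each island, a p-value, the fold of ChIP over control and an FDR. The 4 inputs enter only as control counts. Reads outside islands are not listed, so a stretch without an island may still carry a lower level of the mark, and no count test was run. Covered length was counted in 200 bp steps (numpy 2.4.6 under Python 3.11.15), and coordinates are 1-based. The share of each window was compared between embryonic and adult libraries by an exact permutation test over 35 splits, with p-values adjusted over all tiles with an island. The test was checked on simulated data. All 6 genes are named by rule. The windows and lists were chosen with earlier results of these data known. Alternatives were a fold of at least 1.5, an FDR of at most 1e-10, equal covered length, narrower and wider windows, and each library left out. The lists carry no gene names, so gene bodies, start sites and other genes of the lineage were not analysed here. ChIP reads inside islands numbered 1171968 to 6627853 per library, and whole-library depth is unknown.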

Additional observations from a re-analysis of the deposited data

Results flagged for a closer look

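At Isl1, the share of the window covered in ISC replicate 1 (76.0%) lay far from the other 3 adult libraries, with a gap to the nearest of 0.855 of the whole range, beyond Dixon's critical value of 0.829 for 4 samples. It was found among 12 groups of 4 libraries examined, and chance flags about 1 in 20. The adult group mixes ISC and AE, and the list of ISC replicate 1 covered the most length, 241 Mb. With every list trimmed to the same covered length, ISC replicate 1 had 61.8%, against 48.4 to 52.4% in the other adult libraries. The gap was not tested again at that setting.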

How the results depend on the processing

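Of the embryonic against adult differences in share, those of Atoh1, Neurog3, Insm1 and Isl1 kept their direction in every setting tried. Neurod1 turned to 2.79 points with the window widened by 50% on each side, and Nkx2-2 to -0.50 points in the central 50% of its window; neither passed the threshold in any setting. Neurog3 passed it with a fold of 1.5 or more (-33.4 points) and at equal covered length (-23.4 points), where 1 locus, Neurog3, did not overlap between embryonic and adult libraries instead of 0. It did not pass with the window widened by 50% on each side (-9.38 points), in the central 50% (-19.7 points) or with an FDR of 1e-10 or less (-26.7 points). In the central 50% of the window the count of loci not overlapping was 3 instead of 5 for E12.5 to E14.5 and 1 instead of 3 for ISC to AE. It was 1 for ISC to AE with a fold of 1.5 or more and with an FDR of 1e-10 or less, and 1 instead of 3 for E14.5 to ISC with that FDR. An island was found in all 8 libraries at 5 loci with that fold and at 4 with that FDR.

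With each library left out in turn, the difference ran from -11.0 to -7.00 points at Atoh1, -30.5 to -15.1 at Neurog3, -11.9 to -1.81 at Neurod1, 5.10 to 22.0 at Insm1, 2.17 to 7.33 at Nkx2-2 and -10.4 to -1.07 at Isl1. Loci not overlapping numbered 0 to 2 for embryonic against adult, 5 to 6 for E12.5 to E14.5, 3 to 6 for E14.5 to ISC, 3 to 6 for ISC to AE and 5 to 6 for E14.5 to AE. The 2 for embryonic against adult came without ISC replicate 1, and 1 without E12.5 replicate 2.

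The labels number replicates alike in each population. Deviations of same-numbered libraries correlated from -0.184 to 0.127 over tiles, so the numbers were not taken as pairs. With the replicate block the differences are the same by construction, -9.38 points at Atoh1 and -20.9 at Neurog3, and the exact permutation p was 0.0556 and 0.222, where 0.0556 is the smallest possible. That lies above the threshold of 0.05, which no locus passed without the block, so the block could change no call.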
